A study of Mus musculus with 14 samples.

Results

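Foxb1 is 1 gene of the 12421 in the count table of this mouse leukaemia series, taken as the single row with that symbol (ENSMUSG00000059246). It was selected on its own CPM in these 14 libraries, whose order ran from dependent through evolving to independent tumours. Its levels and differences between groups are therefore given as a description, with no test. RNA sequencing had been done on 14 libraries from 8 T-cell acute lymphoblastic leukaemias (T-ALL) that Lmo2 had induced (VTL tumours). The promoter that drives Lmo2 is not given in the sources used here.

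The labels sort the tumours by their relation to Lmo2. VTL-19 and VTL-24 are Lmo2-dependent, VTL-21, VTL-25 and VTL-153 are evolving, and VTL-33, VTL-44 and VTL-81 are Lmo2-independent. A library without doxycycline (Dox) was made for each of the 8 tumours. A second, from mice whose food held Dox at 600 mg/kg, was made for the 6 that were evolving or independent. Each tumour arose from thymocytes transferred into irradiated C57BL/6-Ly5.1;FVB F1 mice, and its thawed cells were passed into C57BL/6-Rag1-/- hosts. These hosts lack mature B and T cells of their own but keep their myeloid, erythroid and stromal cells. The RNA came from spleen cells sorted as double positive for CD45.1 and CD45.2, the marking of the donor. A library stands for 1 tumour in 1 state, so the spread in a group is that between tumours.

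Foxb1 encodes a transcription factor with a forkhead domain, a winged-helix fold that binds DNA. In the embryo it is expressed in the hypothalamus, midbrain and spinal cord, and mice without it fail to form normal mammillary bodies, a relay of the hypothalamus. It is not among the factors by which stages of T cell development are usually told apart. Lmo2 is a cofactor that joins transcription factors of blood progenitors and is normally shut off as T cells mature.

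Total counts ran from 18214415 to 24048281 per library. All 11 T lineage markers were present in each library, among them Cd3e at 177 to 496 CPM (read counts scaled to library size, with TMM factors) and Lck at 903 to 1520 CPM. VTL-25 and VTL-153 without Dox were close to each other: 3 genes passed 20 CPM in one of them while under 0.5 CPM in its counterpart. The remaining pairs of tumours without Dox had 21 to 130 such genes. The leading T cell receptor beta segment of VTL-25 was Trbv24 without Dox and Trbv5 with Dox. In the other 5 tumours sequenced both ways the leading segment was the same without and with Dox. Different tumours also shared one, Trbv24 in VTL-21, VTL-153 and VTL-33 and Trbv2 in VTL-81, VTL-19 and VTL-24. The same leading segment therefore does not identify a tumour. Where bulk levels differ, a change in the share of cells with a transcript and a change per cell cannot be told apart.

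Foxb1 was nearly silent in the dependent tumours. VTL-24 held 1 count (0.0468 CPM, 95% exact counting interval 0.00118 to 0.26) and VTL-19 held 3 counts (0.158 CPM, 0.0325 to 0.461). The evolving tumours without Dox were low but above both, with 14 counts in VTL-21 (0.629 CPM), 24 in VTL-25 (0.962 CPM) and 21 in VTL-153 (1.05 CPM). The same tumours with Dox held 211, 805 and 437 counts, which came to 10.4 CPM in VTL-21, 39.9 CPM in VTL-25 and 22.1 CPM in VTL-153. With Dox every evolving tumour lay above every library of the dependent and evolving tumours without Dox.

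The independent tumours had high Foxb1 in both states. Without Dox the level was 21.6 CPM in VTL-33, 23.4 CPM in VTL-44 and 28.2 CPM in VTL-81. With Dox it was 14.7, 28.6 and 27.1 CPM in the same order. These 6 libraries overlapped the 3 of the evolving tumours with Dox and lay apart from the 5 low ones. Counting intervals cover counting error only.

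Group means were 0.102 ± 0.0784 CPM in the dependent tumours (SD, n = 2) and 0.88 ± 0.222 CPM in the evolving tumours without Dox (n = 3). They were 24.1 ± 14.9 CPM in the evolving tumours with Dox, 24.4 ± 3.37 CPM in the independent tumours without Dox and 23.5 ± 7.65 CPM in those with Dox (n = 3 each). The last 3 means thus differed by far less than their SDs. The SD in CPM was widest with Dox in the evolving class, where the highest tumour, VTL-25, is the pair whose receptor segment also differed. Relative to the mean, the SD was widest in the dependent tumours, on 4 counts (76.7%, against 61.6% in the evolving tumours with Dox).

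**Figure D1:**
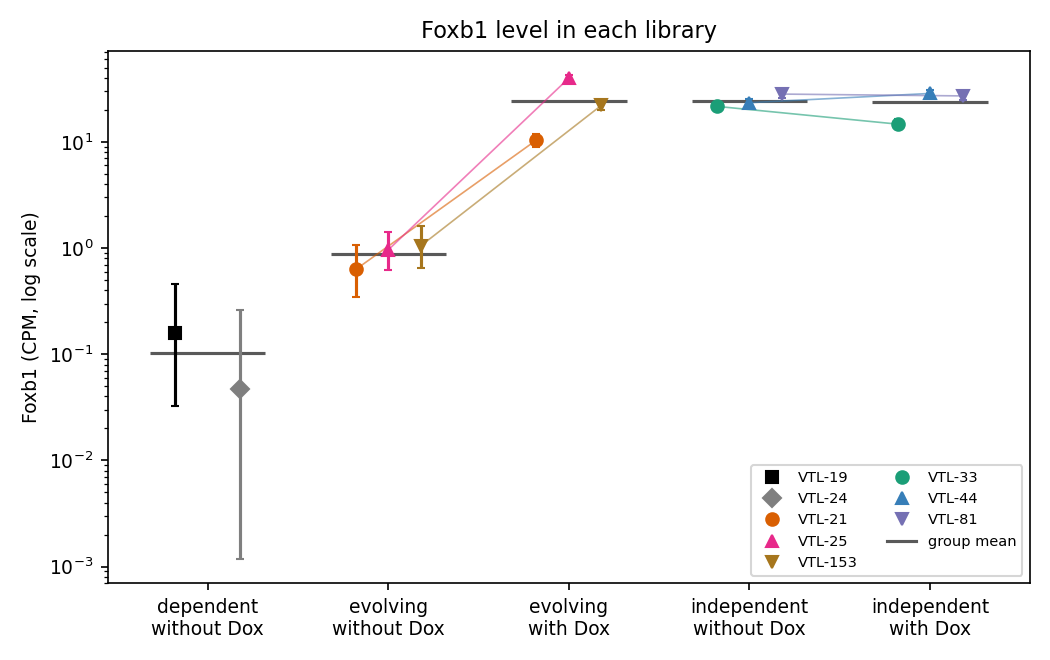
Foxb1 in CPM on a log axis for each library, by group, with 95% exact counting intervals, group means as grey bars and lines that join the libraries of 1 tumour. The 5 libraries of dependent and evolving tumours without Dox sit at 0.0468 to 1.05 CPM and the other 9 at 10.4 to 39.9 CPM.

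In the order of levels the widest step lay between VTL-153 without Dox and VTL-21 with Dox, a ratio of 9.87. Below that step each library's counting interval overlapped that of the next, from VTL-24 up to VTL-153 without Dox. Above it, VTL-21 with Dox, VTL-33 with Dox and VTL-25 with Dox each stood apart from the next library beyond counting error. The 6 libraries from VTL-33 without Dox at 21.6 CPM to VTL-44 with Dox at 28.6 CPM overlapped from each to the next. The evolving and dependent tumours without Dox did not overlap in level, but the dependent group rested on 4 counts. The ratio of evolving to dependent tumours was 8.87, with an exact counting interval of 3.29 to 33.6.

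Within tumours, as paired by the tumour number in the titles, Foxb1 was higher with Dox in 3 of 3 evolving tumours. Partners' deviations from their group means correlated at only 0.0166 to 0.188 in these tumours, against 0.563 to 0.716 in the independent ones. VTL-25 and VTL-153 were also close to each other without Dox. The ratio with to without Dox was 16.5 in VTL-21 (95% exact counting interval 9.6 to 30.6), 41.5 in VTL-25 (27.7 to 65.1) and 21.1 in VTL-153 (13.6 to 34.4). In the independent tumours the ratio was 0.679 in VTL-33 (0.589 to 0.781), 1.22 in VTL-44 (1.08 to 1.38) and 0.964 in VTL-81 (0.856 to 1.09). These 3 did not share a direction. The fitted log2 difference with Dox was 4.61 in the evolving tumours and −0.11 in the independent tumours.

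Without Dox, the fitted log2 difference was 7.85 for independent against dependent tumours and 4.79 for independent against evolving tumours. Over summed counts the ratios were 247 (exact counting interval 96.3 to 908) and 27.9 (21.5 to 36.8). With Dox, independent and evolving tumours had a ratio of 0.955 (0.887 to 1.03). The comparisons with the independent tumours without Dox share those libraries, and the comparisons with the evolving tumours share theirs.

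Set beside Lmo2, high Foxb1 went with low Lmo2 in most libraries but not in VTL-33. Lmo2 stood at 120 CPM in VTL-19 and 142 CPM in VTL-24. In the evolving tumours (VTL-21, VTL-25, then VTL-153) it was 303, 515 and 708 CPM without Dox and 3.24, 0.198 and 0.405 CPM with Dox. VTL-33 without Dox had 600 CPM of Lmo2 together with 21.6 CPM of Foxb1. With Dox it had 1.32 CPM of Lmo2, and its Foxb1 was lower, at 14.7 CPM.

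The levels of Lmo2 and Foxb1 did not follow each other step by step. Of the 6 libraries with Lmo2 above 100 CPM, 5 had Foxb1 at 2 CPM or less, and VTL-33 without Dox was the exception. All 8 libraries with less Lmo2 had Foxb1 above 10 CPM. Among the 5 low libraries the evolving tumours had more of both genes than the dependent tumours. VTL-44 and VTL-81, with Lmo2 at 9.28 and 27.2 CPM without Dox and at 4.09 and 8.46 CPM with Dox, had Foxb1 at 23.4 to 28.6 CPM in all 4 libraries. The thresholds of 100, 10 and 2 CPM were chosen after the values were seen.

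**Figure D2:**
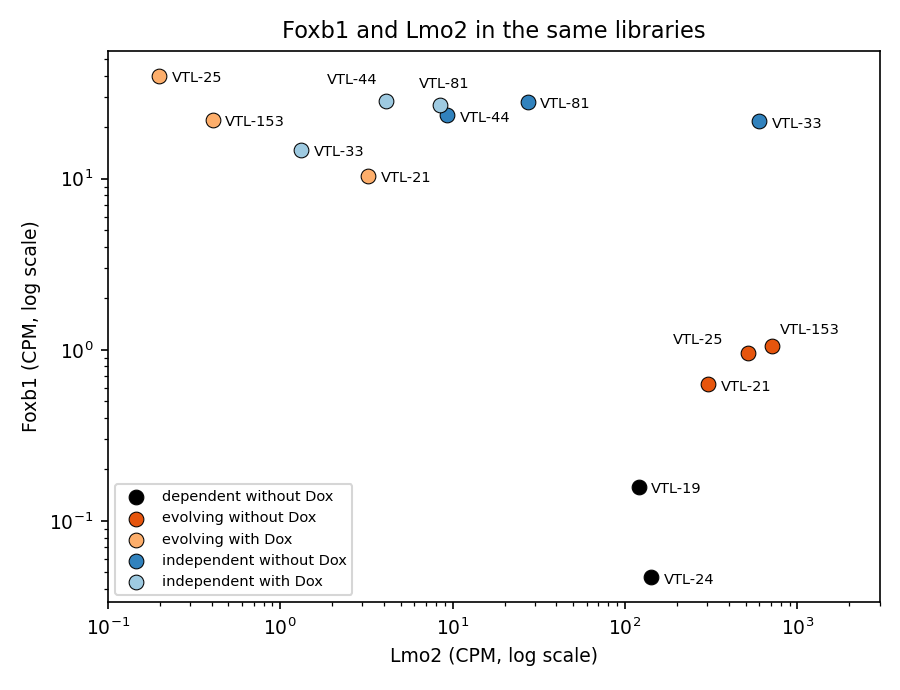
Foxb1 against Lmo2, both in CPM on log axes, 1 point for each of the 14 libraries, coloured by group and named by tumour. VTL-33 without Dox, at 600 CPM of Lmo2 and 21.6 CPM of Foxb1, sits apart from the 5 other libraries with Lmo2 above 100 CPM.

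The step between the 5 low and the 9 other libraries was wide relative to the rest of the table. On the log2 CPM scale with a prior count of 2, the lowest of the 9 exceeded the highest of the 5 by 3.19 for Foxb1, a 9.14-fold gap. All 5 libraries lay below all 9 for 204 of 12421 genes (1.64%), and above all 9 for 305 genes (2.46%). Among the 204 the median gap was 0.17, and 3 genes had a gap of 2 or more: Foxb1, Il2rb (2.21), a chain of interleukin receptors, and the RNA B230323A14Rik (2.17). Foxb1 ranked 1 by this gap, and it ranked 2 when VTL-19, VTL-24 or VTL-25 was left out. For 22 genes (0.177%) the dependent tumours also lay below the evolving tumours without Dox, as for Foxb1. This is the pattern the gene was picked for, so its rank is a description.

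Foxb1 lies on chromosome 9 of mm10, from 69757710 to 69760940 on the minus strand. GENCODE M21 gives it 2 exons, exon 1 from 69760548 to 69760940 and exon 2 from 69757710 to 69760300. The coding sequence, from 69759272 to 69760246, is in exon 2 alone, and exon 1 is 5′ UTR. Of 22 other annotated genes within 500 kb on either side, 8 were in the table.

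B230323A14Rik (ENSMUSG00000097623), a noncoding RNA, runs the opposite way from the same place. It spans 69758740 to 69830845 on the plus strand in GENCODE M21, and 1 of its 2 transcripts shares 418 bases with Foxb1 exons, 14% of their length. RefSeq starts it at 69761146, 206 bases upstream of the Foxb1 start, with no overlap. The strand setting of the counting is not given in the sources used here, so reads of the shared stretch cannot be told apart between these genes.

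B230323A14Rik followed Foxb1 between the low and the high libraries at a lower level. It stood at 0.21 and 0.234 CPM in VTL-19 and VTL-24, and at 0.18, 0.481 and 0.5 CPM in VTL-21, VTL-25 and VTL-153 without Dox. With Dox it was 3.49, 10.7 and 4.55 CPM in those evolving tumours, so that all 3 rose above the 5 low libraries. The independent tumours VTL-33, VTL-44 and VTL-81 had 8.82, 8.24 and 8.36 CPM without Dox and 3.97, 2.58 and 10.8 CPM with it.

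B230323A14Rik shares exon bases with Foxb1 and followed the levels Foxb1 was picked for. Tests of it are therefore no separate support for that pattern. The antisense RNA rose with Dox in the evolving tumours, by a log2 difference of 3.95 (SE 0.582, n = 3 tumours, adjusted p = 0.025 by edgeR's quasi-likelihood test). It was also higher in independent than in evolving tumours without Dox, by 4.43 (SE 0.511, adjusted p = 0.0349 by edgeR). The edgeR test was not passed for independent against dependent tumours (5.22, SE 0.643, adjusted p = 0.0548) or for the change with Dox in the independent tumours (−0.83, SE 0.519, adjusted p = 1). The difference between the responses to Dox, independent minus evolving, was −4.77 (SE 0.772, adjusted p = 0.0907 by edgeR). Independent against dependent tumours passed by DESeq2 (adjusted p = 2.56e-11) and, by edgeR, without VTL-21 (0.0442) or VTL-44 (0.0447), and the difference between the responses passed by DESeq2 (5.56e-06). The call with Dox in the evolving tumours was lost by limma voom (adjusted p = 0.068) and without VTL-25 (0.11), VTL-33 (0.0584) or VTL-153 (0.0579). The call for independent against evolving tumours was lost by limma voom (adjusted p = 0.0616) and without VTL-21 (0.0505), VTL-25 (0.204), VTL-33 (0.104), VTL-81 (0.0739) or VTL-153 (0.115).

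The counts of Foxb1 and of its antisense RNA were not in a fixed ratio. In 8 of the 9 high libraries Foxb1 had between 2.45 (VTL-33 without Dox) and 4.86 (VTL-153 with Dox) counts for each of B230323A14Rik. In VTL-44 with Dox the ratio was 11.1, against 2.84 without Dox. There Foxb1 went from 472 to 587 counts while B230323A14Rik went from 166 to 53. In the dependent tumours the ratio was below 1 (0.75 and 0.2), on 9 antisense counts in all.

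The coding genes around this pair did not share its step. The 5 listed genes nearest on each side were Tln2, Vps13c, Rora, Ice2 and Anxa2 at lower coordinates and B230323A14Rik, Bnip2, Gtf2a2, Fam81a and Myo1e at higher ones. Of these 10 genes, B230323A14Rik was the 1 whose 5 libraries lay below the other 9. The nearest coding gene on the lower side, Anxa2, which encodes a membrane-binding annexin, is 265.9 kb away. It ranged from 6.95 to 433 CPM in the 5 low libraries and from 9.61 to 271 CPM in the others, with VTL-21 high in both states. Bnip2, 228.5 kb away on the other side, was at 113 to 121 CPM in the 5 low libraries and at 89.9 to 156 CPM in the 9 others.

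By edgeR, 1 of these 10 neighbours rose with Dox in the evolving tumours (B230323A14Rik) and none fell, where 2.13% of 12360 genes were called. Their median log2 difference was 0.33, against 0.00 over all genes. For independent against evolving tumours 1 of 10, again B230323A14Rik, was called higher (0.259% of 12348 genes). Both calls rest on this RNA, which shares exon bases with Foxb1, so they are no separate support for its step. Against the dependent tumours 0 of 10 passed by edgeR (0.0972% of genes), with 2 at an unadjusted p under 0.05 (13.2% of genes), 2 by DESeq2 (6.47%) and 0 by limma voom (0%). B230323A14Rik was 1 of the 2 in both of these counts, so there too it is no separate support.

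**Figure D3:**
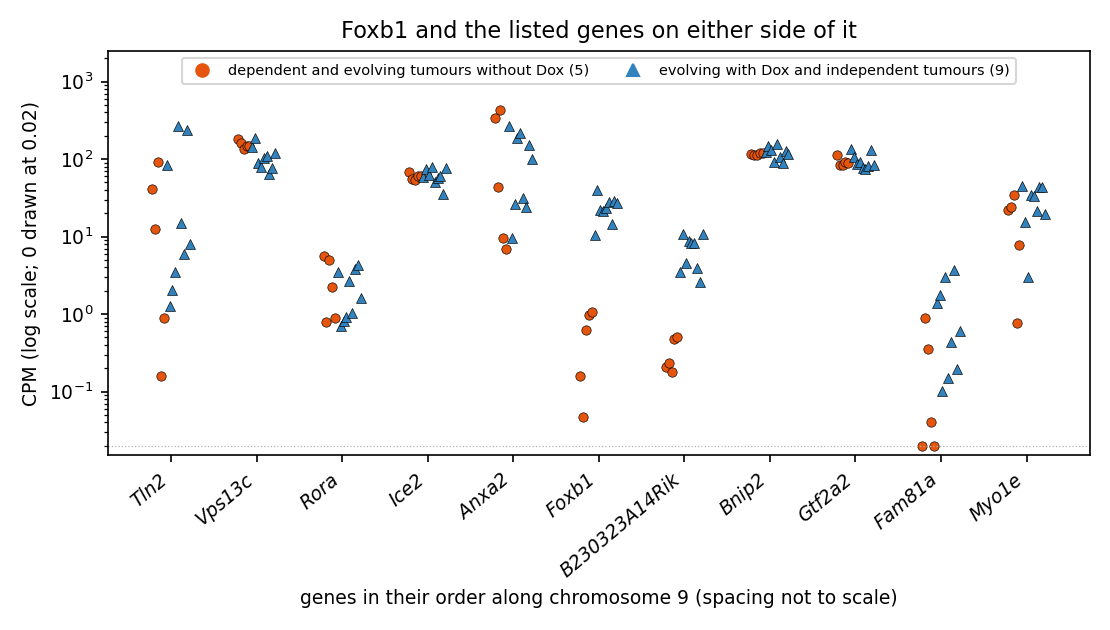
CPM on a log axis for Foxb1 and the 5 listed genes on each side of it, in their order on the chromosome, 1 point per library; circles are the 5 libraries of dependent and evolving tumours without Dox and triangles the other 9. The circles lie below all triangles for Foxb1 and B230323A14Rik, and overlap them for the other 9 genes.

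The table held 15 forkhead genes, and in none of the other 14 did the 5 low libraries lie below the other 9. Foxo3 had the reverse division, at 171 to 318 CPM in those 5 libraries and 81.9 to 148 CPM in the 9. That reverse pattern was seen in 2.46% of all genes. Forkhead factors act in many tissues: FOXO proteins hold lymphocytes in a resting state and are switched off by AKT, and FOXM1 drives genes of mitosis. On a scale of CPM per kb of exon, the highest mean levels over all libraries were those of Foxm1 (39), Foxp4 (23.4), Foxk2 (21), Foxo3 (19.5) and Foxo4 (16.7). On the same scale Foxb1 had 8.18 ± 1.13 in the independent tumours without Dox (SD, n = 3), near Foxo1 (9.04 ± 6.45) and Foxk1 (9.40 ± 0.408). In the dependent tumours it had 0.0343 ± 0.0263 (n = 2), the lowest level of the 15. Its highest and lowest libraries differed 853-fold, against 1.48-fold to 64.2-fold for the other 14. The 853-fold rests on the 1 count in VTL-24; without that library the ratio was 253 for Foxb1 and 43.1 for Foxd2, the next highest.

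Foxo1 was the 1 of the 14 that passed with Dox in the evolving tumours (2.13% of genes), and it rose. It stood at 33, 52 and 60.8 CPM in VTL-21, VTL-25 and VTL-153 without Dox and at 104, 94.0 and 127 CPM with Dox, with no overlap. The log2 difference was 1.19 (SE 0.211, n = 3 tumours, adjusted p = 0.0442 by edgeR). That call was lost by edgeR without any 1 of the 6 tumours (adjusted p from 0.0518 to 0.113) and with no replicate block for tumour (0.385). With all tumours it also passed by DESeq2 (adjusted p = 2.9e-05) and by limma voom (0.027). Unlike Foxb1, Foxo1 was high in only VTL-44 of the independent tumours without Dox, at 143 CPM against 47.4 and 44.7 CPM.

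Foxo3 and Foxd2, chosen after their values were seen, had lower values with Dox in the evolving tumours, and neither passed edgeR's test. Foxo3 stood at 207, 318 and 186 CPM without Dox and 81.9, 116 and 127 CPM with Dox in VTL-21, VTL-25 and VTL-153 (log2 difference −1.12, SE 0.234, adjusted p = 0.07 by edgeR). It passed by DESeq2 (adjusted p = 0.000174) and by limma voom (0.0423). Foxd2 stood at 4.31, 2.72 and 1.30 CPM without Dox and 0.884, 1.24 and 0.101 CPM with Dox. The median log2 difference of the 14 genes was 0.06, against 0.00 over all genes. An unadjusted p under 0.05 was reached by 4 of the 14, where 16.7% of all genes reached it. By DESeq2 2 of the 14 passed (10.6% of genes) and by limma voom 2 (3.45%).

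In the other comparisons 0 of the 14 forkhead genes passed edgeR's test. For independent against dependent tumours 3 had an unadjusted p under 0.05 (13.2% of all genes), 2 passed by DESeq2 (6.47%) and 0 by limma voom (0%). For independent against evolving tumours these counts were 2 (16.4% of all genes), 1 (8.73%) and 0 (0.0567%). For the difference between the responses to Dox (0.121% called by edgeR) they were 2 (9.53%), 0 (4.44%) and 0 (0.558%). For Dox in the independent tumours they were 0 (0.704%), 0 and 0, with 0% of 12360 genes called by any of the 3 tools.

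**Figure D4:**
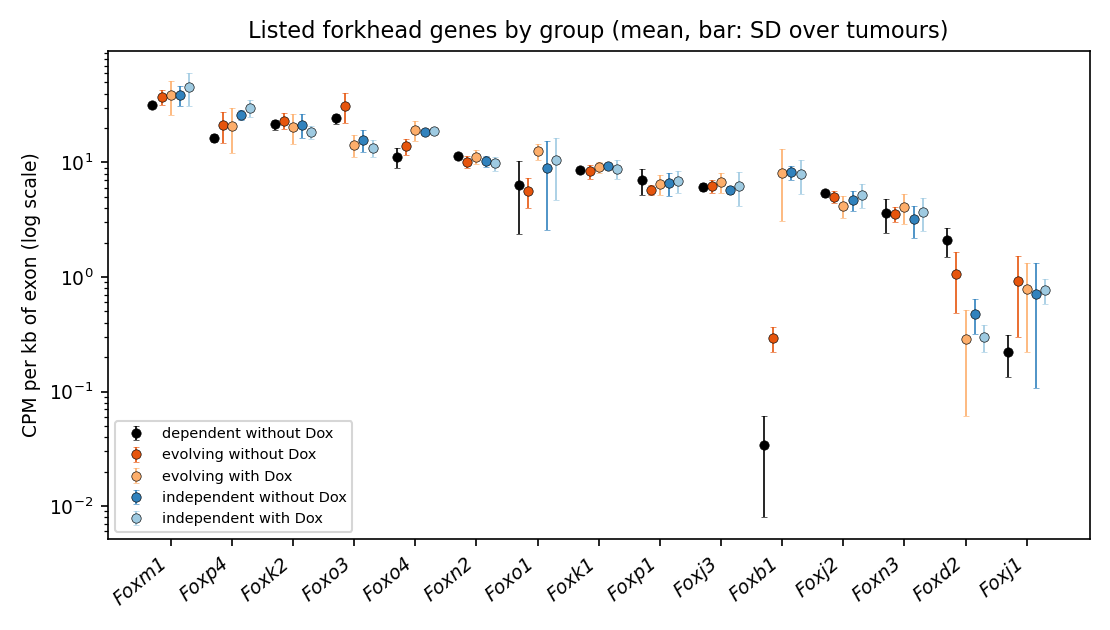
Mean level per kb of exon, on a log axis, of the 15 listed forkhead genes in each of the 5 groups, with SD over tumours, ordered by mean level. Foxb1 goes from 0.0343 in the dependent tumours to 8.18 in the independent tumours without Dox, while Foxm1 stays between 31.9 and 45.8.

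Patterning genes of the embryonic brain were mostly absent from the table. Of 57 genes that pattern the hypothalamus, mammillary region and midbrain, 51 had no row, among them Foxb2, Sim1, Otp, Lhx1, Lhx5 and Nkx2-1. Each gene of the table had at least 1 CPM in at least 2 libraries. The 6 with a row were Lhx2, Emx2, Wnt8b, Pax7, Pou4f1 and Tcf7l2. None of these 6 passed edgeR's test in any of the 5 comparisons, where it called between 0% and 2.13% of all genes. An unadjusted p under 0.05 was reached by 0 to 2 of them, against 0.704% to 16.7% of all genes. By DESeq2 1 passed for Dox in the evolving tumours (10.6% of genes) and 1 for the difference between the responses to Dox (4.44%), and by limma voom 1 passed for Dox in the evolving tumours (3.45%).

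Emx2 and Pax7, developmental homeobox genes of the forebrain and of muscle and neural crest, were on in some of the libraries with high Foxb1 and not in others. Emx2 was above 1 CPM in 6 libraries: VTL-25 and VTL-153 with Dox at 3.96 and 5.82 CPM, VTL-44 at 11.4 and 10.9 CPM and VTL-81 at 11.9 and 12 CPM without and with Dox. It had no counts in VTL-33, in either state, or in VTL-21. Pax7 was above 1 CPM in 3 libraries, VTL-25 with Dox at 41.0 CPM and VTL-81 at 15.0 and 17.8 CPM. Foxb1 was above 10 CPM in each of the 9 libraries outside the low 5, which is the pattern it was picked for.

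Another list took 19 genes by symbols that start like those of homeobox and paired box families. Lhx2, Emx2, Pax7 and Pou4f1 are in this list and in the brain list, so the counts of these lists overlap. The prefixes also took in Islr and Islr2, which encode leucine-rich repeat proteins, the binding partners Paxip1, Paxbp1 and Pbxip1, and the antisense RNAs Dlx1as and Emx2os. Of the 19, 1 passed by edgeR with Dox in the evolving tumours (2.13% of all genes): Pbx3, a homeobox partner of HOX proteins, which rose. It stood at 3.51, 5.09 and 8.40 CPM without Dox (VTL-21, VTL-25, VTL-153) and at 10.4, 12.9 and 43.9 CPM with Dox (log2 difference 1.76, SE 0.285, n = 3 tumours, adjusted p = 0.0338 by edgeR). That call was lost by edgeR without any 1 of the 6 tumours (adjusted p from 0.058 to 0.0947) and with no replicate block (0.19). With all tumours it also passed by DESeq2 (adjusted p = 1.26e-05) and by limma voom (0.0213). Pbx3 was the 1 gene of the 19 whose 5 low libraries lay below the other 9, a pattern of 1.64% of all genes. Six5 had the reverse pattern (2.46% of all genes), at 3.93 to 11.2 CPM in those 5 libraries and 0.405 to 3.37 CPM in the other 9. The list's median log2 difference with Dox in the evolving tumours was 0.34. In the other 4 comparisons none of the 19 passed by edgeR (0% to 0.259% of genes). There 0 to 5 had an unadjusted p under 0.05 (0.704% to 16.4% of genes), 0 to 2 passed by DESeq2 (0% to 8.73%) and 0 by limma voom (0% to 0.558%).

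The genes whose log2 CPM was most like that of Foxb1 over the 14 libraries had the same division into 5 and 9. The measure was Pearson's r over 11704 genes, and libraries of 1 tumour or 1 group are not independent. The highest were Tiparp, an ADP-ribosyltransferase (r = 0.956), Aim1 (0.955), B230323A14Rik (0.952), Hsd17b11, a lipid droplet dehydrogenase (0.938), and Malt1, a protease of antigen receptor signalling (0.936). Sema7a (0.932), Timp2 (0.931), Amica1 (0.929), Adam19 (0.926) and Ddr1 (0.919) came next. In all 10 the 5 low libraries lay below the other 9, for example Tiparp at 0.36 to 2.05 CPM against 6.19 to 10.9 CPM, and Malt1 at 16.4 to 20.2 CPM against 37.2 to 65.0 CPM.

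Most opposite to Foxb1 were Rxrg, a retinoid receptor (r = −0.967), Slc27a6, a fatty acid transporter (−0.965), Adamts9, a secreted protease (−0.962), Armcx1 (−0.960) and Pcdh7, a protocadherin (−0.953). All 5 lay higher in the 5 libraries than in the 9, such as Armcx1 at 16.9 to 26.6 CPM against 0 to 0.0553 CPM. Within groups the likeness was weaker. The correlation of deviations from the group means was highest for Aim1 (0.64), B230323A14Rik (0.56) and Malt1 (0.53) among the 10, and it was −0.34 for Ddr1.

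**Figure D5:**
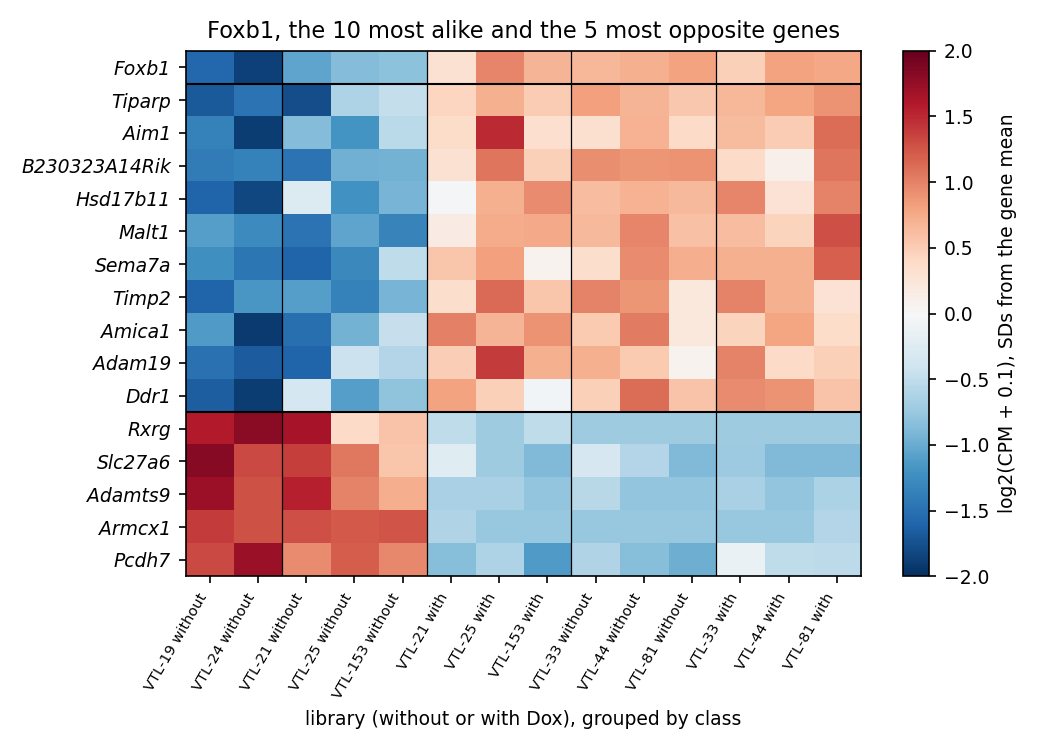
Each row is a gene (Foxb1, the 10 most alike and the 5 most opposite) and each column a library, coloured by log2(CPM + 0.1) in SDs from the gene's mean; vertical lines part the 5 groups. The 5 columns on the left and the 9 on the right have opposite colours in nearly all rows, as the genes were picked for this likeness.

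Markers of other cells were also uneven between libraries, and their part in the Foxb1 levels was not tested. Summed over the 10 myeloid markers, the level was 16.4 to 215 CPM in the 5 libraries with low Foxb1, 19.3 to 173 CPM in the evolving tumours with Dox and 67.2 to 2020 CPM in the independent libraries. VTL-153 with Dox, with 22.1 CPM of Foxb1, had the 19.3 CPM. The 4 listed stromal and endothelial markers of 8 summed to 142 to 181 CPM in the 5 low libraries and to 180 to 902 CPM in the 9 others; Col3a1, Cdh5, Kdr and Vwf had no row. The 6 listed erythroid markers of 9 summed to 0.0935 to 10.9 CPM in the 5 low libraries and to 0.455 to 170 CPM in the others. Of 8 B cell markers, 2 had a row, with sums of 1.03 to 44.5 CPM, while Cd79a, Ms4a1 and Pax5 had none. Of 10 neural markers, 6 had no row, among them Rbfox3, Snap25, Syt1 and Gfap. The other 4 summed to 132 to 212 CPM in the 5 low libraries and to 195 to 395 CPM in the 9 others, most of it from Mbp, which T cells also express.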

How the data were processed

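STAR 2.5.2b, featureCounts and the mm10 build are named in the submitters' processing notes. Annotation and strand setting are not given in the sources used here. The deposited values used were the authors' raw counts per gene, not normalised. The table's other 42 per-sample columns and the authors' own comparison were not used. Positions and exon lengths came from GENCODE M21, which held 12379 of the 12421 identifiers.

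CPM used TMM-scaled library sizes (factors 0.96 to 1.04). The main test was the robust quasi-likelihood test of edgeR 4.0.16 (R 4.3.3) at a minimum count of 10, with p-values adjusted by Benjamini-Hochberg across every gene tested and a threshold of 0.05, and all adjusted p come from it unless another tool is named. Dox comparisons used 12 libraries with tumour as a block, and class comparisons the 8 without Dox. SE is the size of the log2 difference divided by the root of the F statistic. Limma 3.58.1 (voom) and DESeq2 1.42.0, RLE factors, other filters, no replicate block and each tumour left out were alternatives. The tests were tested on simulated data. The tumour number in the titles pairs libraries without and with Dox. Partners' deviations from their group means correlated at 0.563 to 0.716 in the independent and 0.0166 to 0.188 in the evolving tumours.

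Foxb1 and the lists were chosen with earlier results of these data known. Named were Foxb1 and Lmo2, the 10 genes most like Foxb1 and the 5 most opposite, forkhead genes that passed and the 5 of the highest level per length, the 5 nearest listed genes on each side, and passing members of the other lists. Predicted genes, pseudogenes and receptor segments were left out of the likeness. Nothing in the labels says whether libraries of a class came from separate donor animals, so p-values speak for these tumours alone. In class comparisons they measure the spread between tumours. In Dox comparisons, where tumour was a block, they measure how far the change with Dox varied between tumours, over both classes together.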

Additional observations from a re-analysis of the deposited data

How the results depend on the processing

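Foxb1 kept its division into 5 low and 9 high libraries with TMM factors and with total counts as library sizes. Its fitted differences under RLE factors, DESeq2, limma voom, other filters and no replicate block stayed inside the ranges given next for tumours left out. A prior count of 2 also kept them inside, except for independent against dependent tumours, where 7.847 became 6.99, below the range. With each tumour left out in turn, the log2 difference ran from 4.219 to 4.862 for Dox in the evolving tumours, −0.3054 to 0.1089 for Dox in the independent tumours, −4.977 to −4.334 for their difference, 7.223 to 8.864 for independent against dependent tumours and 4.598 to 4.923 for independent against evolving tumours. Mean levels ran from 0.04675 to 0.1577 CPM (dependent), 0.7954 to 1.006 and 16.23 to 31.0 CPM (evolving without and with Dox), and 22.53 to 25.79 and 20.91 to 27.87 CPM (independent without and with Dox). The rank of Foxb1 by its gap was 1 to 2 (2 without VTL-19, VTL-24 or VTL-25), and 224 to 360 genes had the pattern, against 204; fewer libraries have to be parted there.

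Counts of genes past the threshold depended on the tool, and the cause was not tested. For Dox in the evolving tumours 263 became 73 with no replicate block, 1314 by DESeq2 and 426 by limma voom, and 49 (without VTL-25) to 347 (without VTL-21). For the difference of responses 15 became 1, 549 and 69 in the same order, and 0 (without VTL-25) to 58 (without VTL-21). For independent against dependent tumours 12 became 791 (DESeq2) and 0 (limma voom), and 2 (without VTL-153) to 73 (without VTL-44). For independent against evolving tumours 32 became 1068 and 7, and 3 (without VTL-25) to 144 (without VTL-44). Dox in the independent tumours gave 0 throughout. Other forkhead genes passing with Dox in the evolving tumours numbered 1 in the main test, 2 by DESeq2 and also 2 by limma voom, but 0 with no replicate block and 0 with any tumour left out. DESeq2 called 2 of them between independent and dependent tumours and 1 between independent and evolving ones; edgeR called 0 there whichever tumour was left out. Of the 15 genes named for likeness, 2 were named by Spearman's rho, 0 by deviations from the group means (where Ddr1 turned to −0.34), and 8 to 13 with a tumour left out. The dependent tumours held 4 counts of Foxb1 in all, which limits the size of differences against them.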

Other observations

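Emx2, which had counts in part of the libraries with high Foxb1, also has a listed opposite-strand RNA, Emx2os. Emx2os stood at 3.57 and 1.17 CPM in VTL-44 and at 1.64 and 2.32 CPM in VTL-81 without and with Dox, and at 0.297 and 0.759 CPM in VTL-25 and VTL-153 with Dox. It had no counts in the 5 libraries with low Foxb1. Reads of Emx2 and Emx2os cannot be told apart where the genes overlap, as the strand setting is not given in the sources used here.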
